A study of Mus musculus with 18 samples.

Results

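The suprachiasmatic nucleus is represented here by 9 genes measured in the hypothalamus, out of 19937 genes read by probesets with 1 symbol. They were taken by symbol from the platform annotation, as peptides (*Vip*, *Nms*, *Prok2*, *Grp*), receptors (*Vipr2*, *Prokr2*) and markers (*Rgs16*, *Six6*, *Lhx1*) of this nucleus, and 1 probeset reads each. The mice were males of the Schlager hypertensive strain BPH/2J and of its normotensive control BPN/3J, with 1 mouse on each of 18 Affymetrix Mouse Gene 1.0 ST arrays. At ‘peak’ BP, in the active period, there were 6 mice of each strain aged 26 weeks. At ‘trough’ BP, in the inactive period, there were 3 mice of each strain, aged 18 weeks by the sample labels and 19 weeks by the description of the series, so that time of day and age cannot be told apart. All mice had standard housing, and the labels name no treatment or introduced allele. The BPN/3J mice at ‘trough’ BP were assigned by their titles, although a separate strain field of these samples reads BPH/2J. The labels give the whole hypothalamus as the tissue and the methods of the study the paraventricular and dorsomedial nuclei, neither of which is the suprachiasmatic nucleus.

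This small paired nucleus lies above the optic chiasm, receives light signals from the retina and holds the central circadian clock. Cells of its ventral core make *Vip* and *Grp*, which pass on the light signal and keep the clock cells in step through receptors such as *Vipr2*, while *Prok2* acts as an output signal through *Prokr2*. In a whole piece of hypothalamus these transcripts come from few cells, and most of the 9 genes are also used in other brain regions. In such bulk tissue, fewer cells of a type and less RNA per cell cannot be told apart.

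Several of these genes are known targets of the clock or of cAMP signalling. The promoters of 8 members, from RefSeq on GRCm38.p6 and running from 250 bases before the start of the gene to 50 after it, were therefore searched on both strands for 4 motifs. The E-box CACGTG, bound by CLOCK and BMAL1, was found in *Prok2*, 135 bases before the start, and in 7.15% of 32851 promoters in the table. The core of the cAMP response element, TGACG, was found in *Vip*, 79 bases before the start, in *Lhx1*, 50 bases before it, and in 20.8% of all promoters. The full element TGACGTCA, which contains this core, was found in 0 of the 8 and in 1.79% of all promoters, and the D-box TTATGTAA in 0 of the 8 and in 0.938%. The 3 promoters that held a motif are shown with the motif in capitals. They lie at chr10:5638968-5639267 on the plus strand for *Vip*, at chr6:99726343-99726642 on the minus strand for *Prok2* and at chr11:84525485-84525784 on the minus strand for *Lhx1*.
Vip: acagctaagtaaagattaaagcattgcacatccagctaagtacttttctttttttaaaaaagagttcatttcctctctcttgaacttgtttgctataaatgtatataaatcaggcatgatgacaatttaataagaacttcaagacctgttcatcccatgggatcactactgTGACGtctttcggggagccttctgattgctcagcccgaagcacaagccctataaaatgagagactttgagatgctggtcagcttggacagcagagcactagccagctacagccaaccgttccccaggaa
Prok2: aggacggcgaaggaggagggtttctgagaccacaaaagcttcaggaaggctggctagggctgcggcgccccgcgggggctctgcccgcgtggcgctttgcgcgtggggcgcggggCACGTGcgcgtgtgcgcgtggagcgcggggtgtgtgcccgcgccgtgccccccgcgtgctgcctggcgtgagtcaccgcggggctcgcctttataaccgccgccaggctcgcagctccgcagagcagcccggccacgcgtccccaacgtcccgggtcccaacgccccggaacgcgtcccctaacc
Lhx1: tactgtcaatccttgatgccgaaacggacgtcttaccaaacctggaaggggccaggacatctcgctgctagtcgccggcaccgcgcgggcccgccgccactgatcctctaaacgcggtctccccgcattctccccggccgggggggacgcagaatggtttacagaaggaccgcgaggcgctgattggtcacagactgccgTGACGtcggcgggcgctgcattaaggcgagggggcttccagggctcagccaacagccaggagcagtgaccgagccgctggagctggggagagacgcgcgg

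Log2 values of all probesets were compared between the groups in 5 ways. These were ‘peak’ BP against ‘trough’ BP within a strain, the strains against each other at each time, and *d*, the strain difference at ‘peak’ BP minus that at ‘trough’ BP. The *aFD* is 2 raised to the size of *d*, with the sign of *d*, and the study used a threshold of 1.5 for it. A probeset was called at an adjusted p under 0.05 in limma. The median value of an array ran from 6.17 to 6.42 over the 18 arrays.

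None of the 9 genes was called in any of the 5 comparisons by limma. For *d*, 0 members were called, and 0% of all probesets. In the ‘peak’ minus ‘trough’ comparisons 0 members were called in BPH/2J, against 8.64% of all probesets, and 0 in BPN/3J, against 25.3%. Between the strains 0 members were called at ‘peak’ BP, against 1.33% of all probesets, and 0 at ‘trough’ BP, against 0.529%. An unadjusted p under 0.05 was reached by 1 member each in *d* (8.31% of all probesets), in BPH/2J (23.1%), in BPN/3J (39.9%) and between the strains at ‘peak’ BP (9.93%), and by 0 members between the strains at ‘trough’ BP (10.4%). These were *Nms* in all but the comparison within BPN/3J, where it was *Six6*. An *aFD* of 1.5 or more in size was reached by 0 members, against 5.93% of all probesets.

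**Figure D1:**
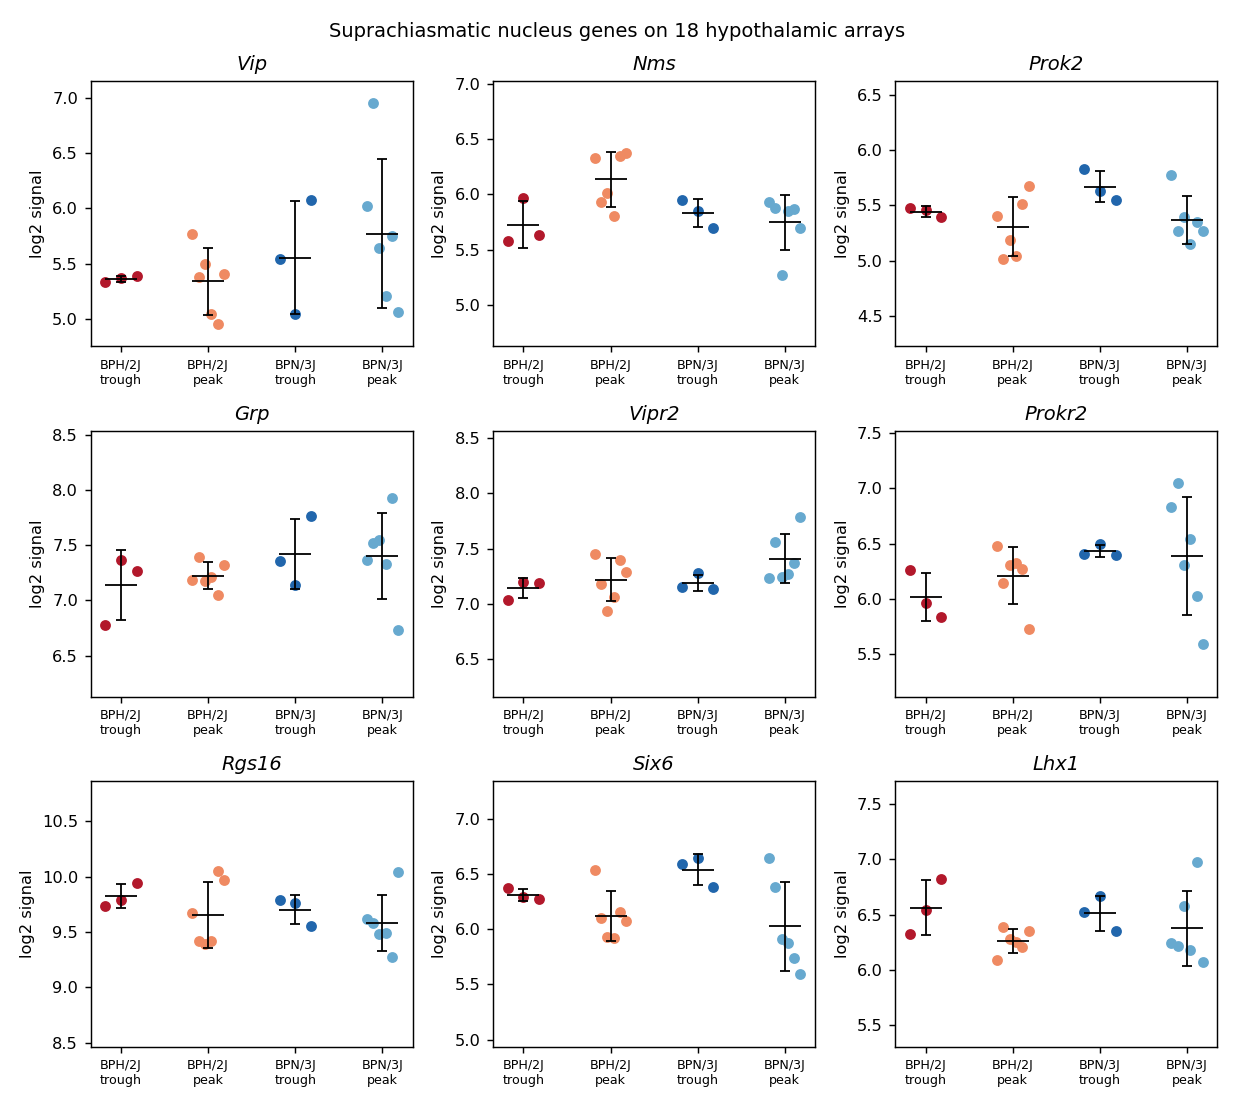
Log2 signal of the 9 genes on each array, by strain and time, with the group mean and SD as a line and bars and 1 point for each mouse. *Vip* in BPN/3J mice at ‘peak’ BP spread from 5.06 to 6.95, the widest range of any member in a group.

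The median difference of the 9 genes was 0.10 on the log2 scale for *d*, where the median of all probesets was -0.01. For ‘peak’ minus ‘trough’ BP the member median was -0.02 in BPH/2J mice and -0.09 in BPN/3J mice, where all probesets had -0.02 and -0.01. BPH/2J mice were below BPN/3J mice by a member median of -0.11 at ‘peak’ BP, with 6 members negative, and of -0.19 at ‘trough’ BP, with 7 negative, where all probesets had medians of -0.01 and 0.00. The 95% interval of a single gene reached from 0.22 (*Vipr2*, between the strains at ‘peak’ BP) to 0.94 (*Vip*, for *d*) to either side of the estimate. With this number of arrays, differences within these widths could not be told from 0 even before adjustment. A call after adjustment took more, since *Nms* and *Six6* had intervals that exclude 0 and were not called.

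*Vip* encodes vasoactive intestinal peptide, which synchronizes the neurons of the nucleus. In BPN/3J mice its log2 signal was 5.54, 5.05 and 6.07 at ‘trough’ BP and had a lowest, median and highest value of 5.06, 5.69 and 6.95 at ‘peak’ BP. In BPH/2J mice it was 5.33, 5.37 and 5.38 at ‘trough’ BP and 4.95, 5.39 and 5.77 (lowest, median, highest) at ‘peak’ BP. The 4 groups overlapped, and the mean was highest in BPN/3J at ‘peak’ BP and lowest in BPH/2J at ‘peak’ BP. The strain difference at ‘peak’ BP was -0.43 (95% interval -0.98 to 0.11, limma adjusted p = 0.646). A single mouse, BPN/3J 6 at ‘peak’ BP, had the highest value of all 18 arrays, and the range over the arrays was 4.00-fold. The mean signal of *Vip* was below the 40th percentile of all probesets, 5.64, which was used as a limit for dim signal, and the gene was above that limit on 6 arrays of 18.

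*Nms* encodes neuromedin S, a peptide made by a large share of the clock neurons. At ‘peak’ BP its lowest, median and highest values were 5.81, 6.17 and 6.37 in BPH/2J mice and 5.27, 5.86 and 5.93 in BPN/3J mice. At ‘trough’ BP they were 5.58, 5.97 and 5.63 in the 3 BPH/2J mice and 5.95, 5.85 and 5.69 in the 3 BPN/3J mice. BPH/2J mice at ‘peak’ BP were thus the highest group by mean, and their range overlapped that of each of the other groups. The difference between the strains at ‘peak’ BP was 0.39, or 1.31-fold (95% interval 0.12 to 0.66, unadjusted p = 0.00736 and adjusted p = 0.220 in limma). Within BPH/2J the difference between ‘peak’ and ‘trough’ BP was 0.41 (95% interval 0.08 to 0.74, limma adjusted p = 0.118). Both comparisons share the BPH/2J mice at ‘peak’ BP, as does *d*, which was 0.49 (95% interval 0.03 to 0.96, limma adjusted p = 0.596), an *aFD* of 1.41. The ‘peak’ mice were also divided by their numbers into a lower-numbered set (BPH/2J 4 to 7 and BPN/3J 5 to 8) and a higher-numbered set (BPH/2J 8 and 9, BPN/3J 10 and 11). This cut was chosen here, and the sample titles give only the numbers and name no sets. The strain difference of *Nms* at ‘peak’ BP was 0.29 with the lower-numbered and 0.58 with the higher-numbered set, and neither passed, with limma adjusted p = 0.625 and 0.247.

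*Prok2* encodes prokineticin 2, the output peptide with the E-box shown above. At ‘trough’ BP it was at 5.48, 5.46 and 5.39 in BPH/2J mice and at 5.83, 5.63 and 5.55 in BPN/3J mice. All 3 BPH/2J mice were below all 3 BPN/3J mice, yet the difference of -0.23 did not pass (95% interval -0.58 to 0.13, limma adjusted p = 0.647). At ‘peak’ BP it ran from 5.02 to 5.68 with a median of 5.29 in BPH/2J mice and from 5.15 to 5.77 with a median of 5.31 in BPN/3J mice. The 2 ‘peak’ groups covered nearly one range, and the difference within BPN/3J between ‘peak’ and ‘trough’ BP was -0.30 (95% interval -0.61 to 0.01, limma adjusted p = 0.133). *Prok2* was above the limit for dim signal on 3 arrays of 18. BPN/3J mouse 5 had the highest value of its ‘peak’ group, 5.77, so leaving it out enlarges the fall within BPN/3J. That difference was then -0.38 and passed narrowly (limma adjusted p = 0.0499), the only alternative in which *Prok2* was called.

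*Grp* encodes gastrin-releasing peptide, made by light-responsive cells of the core. It was at 6.77, 7.37 and 7.27 in BPH/2J and 7.35, 7.14 and 7.76 in BPN/3J mice at ‘trough’ BP. At ‘peak’ BP its lowest, median and highest values were 7.05, 7.20 and 7.39 in BPH/2J and 6.74, 7.44 and 7.93 in BPN/3J mice. The ranges of all 4 groups overlapped, and both the lowest and the highest array of the 18 were BPN/3J mice at ‘peak’ BP. None of its differences passed, and the largest in size, -0.28 between the strains at ‘trough’ BP, had a 95% interval of -0.76 to 0.20 (limma adjusted p = 0.678).

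*Vipr2* encodes VPAC2, the receptor through which *Vip* acts on clock cells. Its lowest, median and highest values at ‘peak’ BP were 6.94, 7.23 and 7.45 in BPH/2J mice and 7.24, 7.32 and 7.78 in BPN/3J mice. At ‘trough’ BP it was at 7.04, 7.20 and 7.19 in BPH/2J and at 7.16, 7.28 and 7.13 in BPN/3J mice. The ‘trough’ groups lay within the span of the ‘peak’ groups, and the residual SD of 0.18 was the smallest of the 9 genes. Differences were 0.22 between ‘peak’ and ‘trough’ BP in BPN/3J (95% interval -0.05 to 0.49, limma adjusted p = 0.208) and -0.19 between the strains at ‘peak’ BP (95% interval -0.41 to 0.03, limma adjusted p = 0.598).

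*Prokr2* encodes the receptor of prokineticin 2 and is also used outside the nucleus. The 3 BPH/2J mice at ‘trough’ BP had 6.26, 5.96 and 5.84 and the 3 BPN/3J mice 6.40, 6.50 and 6.40. The strains did not overlap at this time, with BPH/2J lower. That difference was -0.41, with a 95% interval of -0.999 to 0.17 (limma adjusted p = 0.613). At ‘peak’ BP the lowest, median and highest values were 5.73, 6.29 and 6.48 in BPH/2J and 5.59, 6.42 and 7.04 in BPN/3J mice, so the BPN/3J range contained that of BPH/2J. With array weights, which gave BPN/3J mouse 3 at ‘trough’ BP a weight of 9.44 and the others of that group 0.409 and 0.636, the strain difference at ‘trough’ BP was -0.48 and passed (limma adjusted p = 0.0243).

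*Rgs16*, a regulator of G protein signalling that shapes cAMP in the dorsal part of the nucleus, had the smallest range over the arrays, at 1.72-fold. At ‘trough’ BP it was at 9.74, 9.79 and 9.95 in BPH/2J and at 9.79, 9.77 and 9.55 in BPN/3J mice. The lowest, median and highest values at ‘peak’ BP were 9.39, 9.54 and 10.05 in BPH/2J and 9.27, 9.54 and 10.04 in BPN/3J mice. In both ‘peak’ groups the high values belonged to higher-numbered mice, 10.05 and 9.97 in BPH/2J mice 8 and 9 and 10.04 in BPN/3J mouse 11, while BPN/3J mouse 10 had the lowest of all. With the lower-numbered mice alone, the difference between the times in BPH/2J was -0.35 and passed (limma adjusted p = 0.0183), against -0.17 with all mice (limma adjusted p = 0.590).

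*Six6*, a homeobox gene needed to form the nucleus, came nearest to a call. In BPN/3J mice it was at 6.59, 6.65 and 6.38 at ‘trough’ BP and had a lowest, median and highest value of 5.60, 5.89 and 6.64 at ‘peak’ BP. In BPH/2J mice it was at 6.37, 6.29 and 6.27 at ‘trough’ BP and at 5.92, 6.08 and 6.54 (lowest, median, highest) at ‘peak’ BP. At ‘trough’ BP the BPH/2J mice were all below the BPN/3J mice, and in each strain the ‘peak’ and ‘trough’ ranges overlapped. The difference between ‘peak’ and ‘trough’ BP in BPN/3J was -0.51 (95% interval -0.91 to -0.12, unadjusted p = 0.0141 and adjusted p = 0.0537 in limma). The BPN/3J mice 5 and 6 at ‘peak’ BP were the highest of their group at 6.64 and 6.38, so leaving either out enlarges the fall. With mouse 5 left out the difference was -0.64 and passed (limma adjusted p = 0.0117), and with mouse 6 left out it was -0.59 and passed (limma adjusted p = 0.0409). With BPH/2J mouse 4 at ‘peak’ BP left out it was -0.51 and passed (limma adjusted p = 0.0457). It was -0.34 with the lower-numbered ‘peak’ mice (limma adjusted p = 0.173) and -0.87 with the higher-numbered ones (limma adjusted p = 0.0108). The difference did not pass after quantile normalization (-0.45, limma adjusted p = 0.113) or median centring (-0.42, limma adjusted p = 0.127). Nor did it pass with only the compared groups fitted (-0.51, limma adjusted p = 0.131). Leaving out BPN/3J mouse 1 or 3 at ‘trough’ BP gave -0.49 and -0.46, which did not pass (limma adjusted p = 0.162 and 0.167).

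Markers of the pituitary, which borders the hypothalamus, moved in the same comparison. Of 5 measured, 3 were lower at ‘peak’ BP in BPN/3J, where 25.3% of all probesets were called (*Gh* -2.48, *Prl* -1.51 and *Pitx1* -0.60 on the log2 scale, limma adjusted p = 0.0464, 0.0418 and 0.0119). The mean deviation of the 5 markers was 0.17, 2.69 and 0.37 in the 3 BPN/3J mice at ‘trough’ BP, and ran from -0.45 to 0.49 in those at ‘peak’ BP. It ran from -0.42 to 0.15 in BPH/2J mice at ‘trough’ BP and from -0.49 to -0.12 in those at ‘peak’ BP. *Six6* is also known from the pituitary. Within groups, over the 18 arrays, its deviations from group means had a correlation of 0.14 with those markers (Spearman's rho 0.18, permutation p = 0.505 and 0.511, adjusted over 135 relations 0.822 and 0.776). The part of pituitary tissue in the difference of *Six6* was not tested.

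*Lhx1*, a LIM homeobox gene needed for coupling of the clock cells and used as well in the mammillary region, was at 6.33, 6.54 and 6.83 in BPH/2J and at 6.52, 6.67 and 6.35 in BPN/3J mice at ‘trough’ BP. At ‘peak’ BP its lowest, median and highest values were 6.09, 6.27 and 6.39 in BPH/2J and 6.07, 6.23 and 6.98 in BPN/3J mice. The groups overlapped, with ‘trough’ means above ‘peak’ means in both strains. In BPH/2J the difference between ‘peak’ and ‘trough’ BP was -0.30 (95% interval -0.65 to 0.04, limma adjusted p = 0.287) and in BPN/3J it was -0.14 (95% interval -0.48 to 0.21, limma adjusted p = 0.553).

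**Figure D2:**
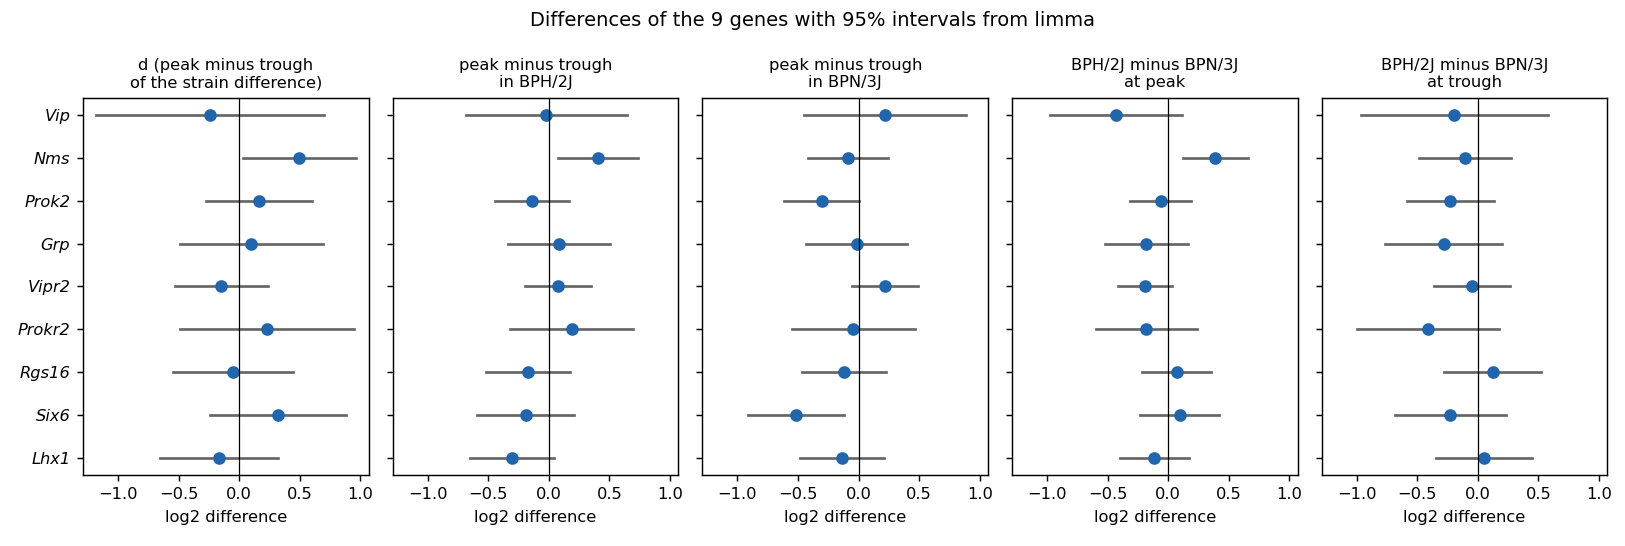
Log2 difference of the 9 genes in the 5 comparisons, with 95% intervals from limma. The intervals exclude 0 for *Nms* in *d*, in BPH/2J and between the strains at ‘peak’ BP, and for *Six6* in BPN/3J, before adjustment over all probesets.

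Counted over the members, the ranges of the 2 groups did not overlap for *Prok2*, *Six6* and *Prokr2*, 3 of 9, between the strains at ‘trough’ BP, against 19.9% of all probesets. They were apart for 0 members between the times in BPH/2J (17.7% of all probesets) and in BPN/3J (20.8%), and for 0 between the strains at ‘peak’ BP (1.57%). In the order of the 4 group means of each gene, the only neighbours without overlap were the strains at ‘trough’ BP for *Prok2* and *Six6*, both with BPN/3J above BPH/2J.

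To set the arrays against each other, the deviation of each gene from its mean over the 18 arrays was averaged over the 9 genes into a nucleus index. It was highest in BPN/3J mouse 6 at ‘peak’ BP (0.28), followed by BPN/3J mouse 5 at ‘peak’ BP (0.19) and BPN/3J mouse 1 at ‘trough’ BP (0.14). The lowest values were -0.23 in BPN/3J mouse 11 and -0.20 in BPH/2J mouse 7, both at ‘peak’ BP. The highest and lowest arrays thus differed by 0.51, or 1.42-fold, and both were BPN/3J mice at ‘peak’ BP. With values divided by their SD over the arrays, the lowest was BPH/2J mouse 7 instead. Group means were -0.05 ± 0.12 (SD, n = 6) in BPH/2J and 0.02 ± 0.19 (SD, n = 6) in BPN/3J at ‘peak’ BP. At ‘trough’ BP they were -0.04 ± 0.06 (SD, n = 3) in BPH/2J and 0.10 ± 0.03 (SD, n = 3) in BPN/3J, where the 3 values of 0.14, 0.07 and 0.11 were all above the 3 of BPH/2J, -0.11, 0.00 and -0.02. The medians of these arrays were 6.42, 6.38 and 6.29 in BPN/3J and 6.33, 6.27 and 6.27 in BPH/2J. After median centring the index values of the 2 ‘trough’ groups overlapped. Being a score over chosen genes, the index was given no test.

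The index did not stand for the same genes on each array. In BPN/3J mouse 6 at ‘peak’ BP, 6 of the 9 genes were above their median over all arrays, and with *Vip* left out its index was 0.13 and that of BPN/3J mouse 5 the highest, at 0.16. In BPN/3J mouse 1 at ‘trough’ BP, 8 of 9 genes were above their median, and the median of this array, 6.42, was the highest of all 18. BPH/2J mouse 7 had 1 of 9 above it and BPN/3J mouse 11 had 2 of 9. That last mouse had the highest *Vipr2* of all 18 (7.78) and the lowest *Grp*, *Six6*, *Lhx1* and *Prokr2*. A set of 7 genes had a mean signal over the limit for dim signal, and of these *Grp*, *Rgs16*, *Lhx1* and *Vipr2* were over it on all 18 arrays, *Six6* and *Prokr2* on 17 and *Nms* on 15.

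**Figure D3:**
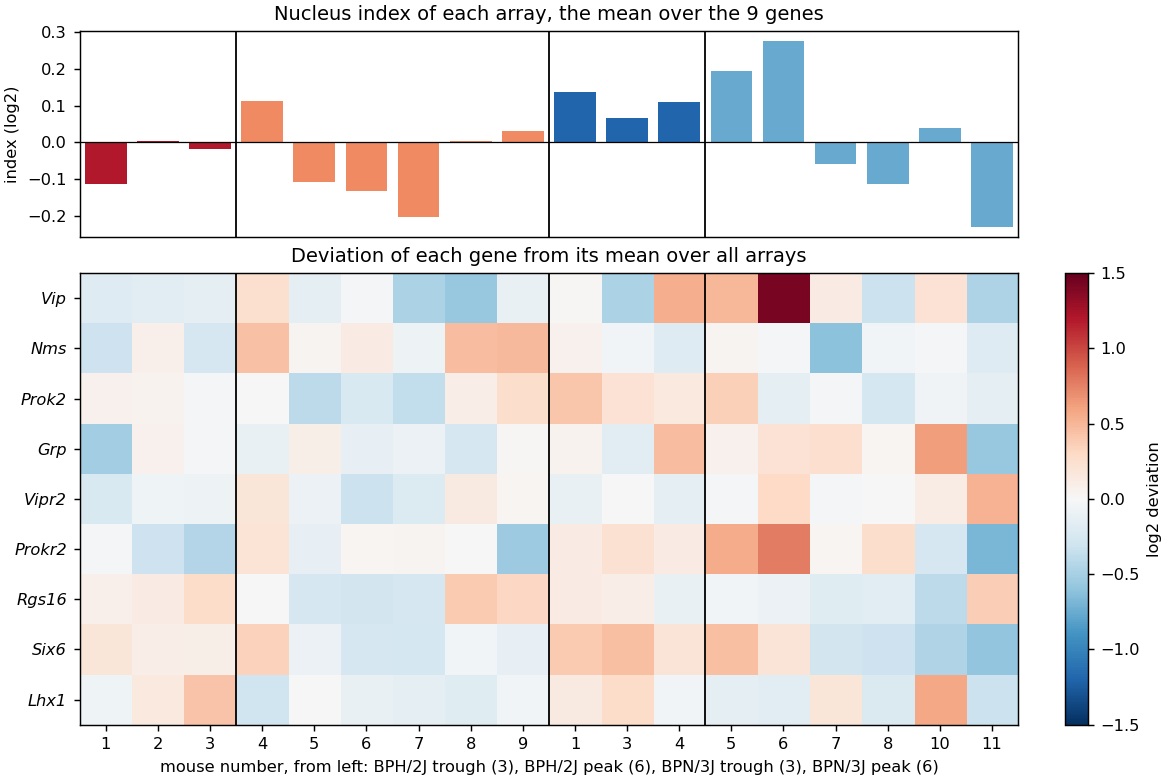
Nucleus index of each array (bars, log2) above the log2 deviation of each of the 9 genes from its mean over the 18 arrays (colours), with arrays ordered by group and mouse number. BPN/3J mouse 6 at ‘peak’ BP is the highest at 0.28 (0.13 without *Vip*), and BPN/3J mouse 11 is the lowest at -0.23.

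Whether the genes of the nucleus were high and low on the same arrays was examined next. Deviations from group means were correlated over the 18 arrays for all 36 pairs of the 9 genes, which share their arrays and normalization. Among the pairs, 22 had a positive r and 14 a negative one. The median r was 0.06, within a range of -0.57 to 0.75. By permutation within groups, 4 pairs had p under 0.05 and 0 passed after adjustment over the 36.

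The strongest pairs joined a marker and a receptor. *Six6* and *Prokr2* had Pearson's r = 0.75 and Spearman's rho = 0.61 (permutation p = 0.0112 and 0.0241, adjusted p = 0.161 and 0.221). *Rgs16* and *Vipr2* had r = 0.72 and rho = 0.67 (permutation p = 0.00849 and 0.0111, adjusted p = 0.161 and 0.221). Without the 2 arrays farthest from the median of the first gene, r was 0.74 for *Six6* with *Prokr2* and 0.52 for *Rgs16* and *Vipr2*. With means of the lower- and higher-numbered sets taken out it was 0.62 and 0.73 (permutation adjusted p = 0.296 for both). Each higher-numbered set holds 2 mice, whose deviations from their own mean are equal and opposite. A larger r with the sets taken out, here or below, is therefore not read as a stronger relation. High *Six6* with high *Prokr2* was seen in BPN/3J mice 5 and 6 and BPH/2J mouse 4 at ‘peak’ BP, and low values of both in BPN/3J mouse 11.

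Peptides and their receptors gave values near 0, at r = -0.05 and rho = -0.08 for *Vip* and *Vipr2* (permutation p = 0.876 and 0.786, adjusted p = 0.979 and 0.885). For *Prok2* and *Prokr2* they were r = 0.01 and rho = 0.01 (permutation p = 0.978 and 0.976, adjusted p = 0.979 and 0.993). The peptides *Nms* and *Prok2* had r = 0.55 and rho = 0.60 (permutation p = 0.0464 and 0.0271, adjusted p = 0.374 and 0.221). This was 0.66 without the 2 farthest arrays and 0.40 with the number sets taken out. *Grp* and *Rgs16* ran in opposite directions, at r = -0.57 and rho = -0.51 (permutation p = 0.0134 and 0.0304, adjusted p = 0.161 and 0.221), but with the 2 farthest arrays left out r was -0.21, so that the relation rested on those. The number sets taken out, it was -0.73 (permutation p = 0.243, adjusted p = 0.671). Likewise *Grp* and *Lhx1* had r = 0.61 and rho = 0.49 (permutation p = 0.0557 and 0.0886, adjusted p = 0.374 and 0.319). Their r was 0.22 without the 2 farthest arrays and 0.40 without BPN/3J mouse 10 at ‘peak’ BP. It was 0.68 with the number sets taken out (permutation p = 0.251, adjusted p = 0.671).

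**Figure D4:**
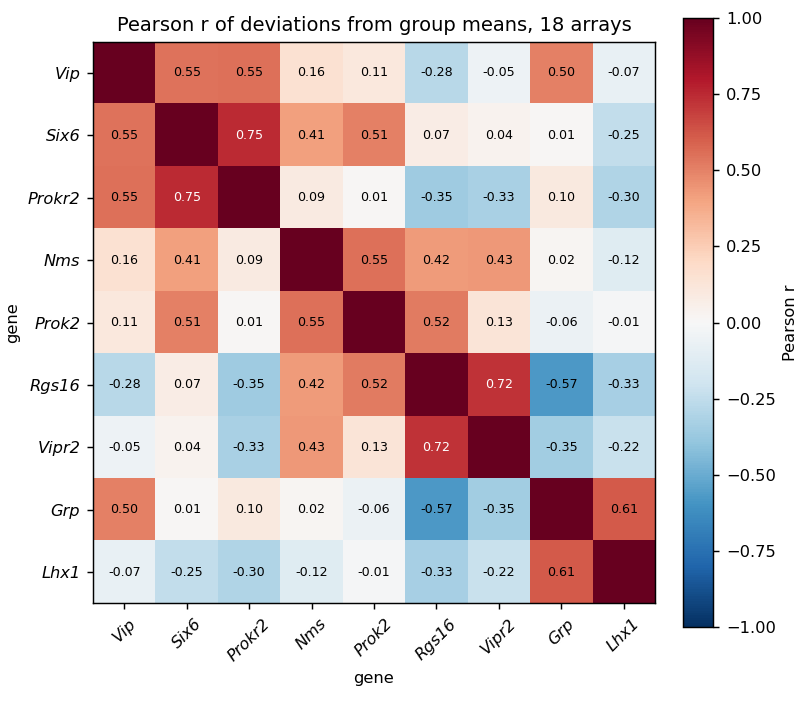
Pearson's r between the 9 genes over 18 arrays, from deviations from group means, with the colour and the printed value giving r. The highest values are 0.75 for *Six6* with *Prokr2* and 0.72 for *Rgs16* with *Vipr2*, and 14 of the 36 pairs are negative.

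Since most of the 9 genes are used in other regions too, their deviations were also set against 14 lists of marker genes and the array median, 135 relations in all, of which 19 had a permutation p under 0.05 and 0 passed after adjustment. Among the smallest p-values were those of *Lhx1* with the mammillary markers *Foxb1* and *Lhx5* at r = 0.85 and rho = 0.75 (permutation p = 4e-04 and 0.00422, adjusted p = 0.0540 and 0.190), and *Grp* with the same markers at r = 0.80 and rho = 0.80 (permutation p = 0.00126 and 0.00105, adjusted p = 0.0567 and 0.142). Without the 2 farthest arrays r was 0.69 and 0.60. It was 0.86 and 0.83 with the number sets taken out, where the permutation adjusted p was 0.394 for both. BPN/3J mouse 10 at ‘peak’ BP had the highest *Grp* (7.93), the highest *Lhx1* (6.98) and the highest mean deviation of the mammillary markers (0.43) of all arrays, and the lowest of the thalamus markers (-0.46). *Lhx1* was not related to these markers alone. With the oligodendrocyte markers it had r = 0.64 and rho = 0.57 (permutation p = 0.00753 and 0.0194, adjusted p = 0.157 and 0.320), 0.44 without the 2 farthest arrays. With the thalamus markers it had r = -0.68 and rho = -0.37 (permutation p = 0.0410 and 0.190, adjusted p = 0.292 and 0.539), -0.13 without the 2 farthest arrays. The part of mammillary tissue in the values of *Grp* and *Lhx1* was not tested.

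*Six6* was correlated with the preoptic markers at r = 0.79 and rho = 0.75 (permutation p = 0.00124 and 0.00273, adjusted p = 0.0567 and 0.184), with 0.83 without the 2 farthest arrays and 0.71 with the number sets taken out. Other regions gave *Six6* similar values. With the paraventricular markers r was 0.77 and rho 0.56 (permutation p = 0.00809 and 0.0432, adjusted p = 0.157 and 0.324), 0.70 without the farthest arrays and 0.67 with the number sets taken out. With the arcuate markers r was 0.75 and rho 0.59 (permutation p = 0.00813 and 0.0369, adjusted p = 0.157 and 0.320), 0.60 and 0.82 in the same alternatives. The latter had a permutation adjusted p of 0.394. With the lateral markers r was 0.67 and rho 0.55 (permutation p = 0.0308 and 0.0555, adjusted p = 0.291 and 0.386), 0.56 and 0.46. With the other genes of the suprachiasmatic nucleus *Six6* had r = 0.76 and rho = 0.58 (permutation p = 0.00947 and 0.0418, adjusted p = 0.160 and 0.324), 0.63 and 0.61, and *Prokr2* had r = 0.72 and rho = 0.60 (permutation p = 0.0220 and 0.0380, adjusted p = 0.265 and 0.320), 0.64 and 0.48. *Avp* stands both in this list and in the paraventricular list, so the values of these lists are not independent.

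*Prokr2* and the arcuate markers had r = 0.76 and rho = 0.59 (permutation p = 0.00496 and 0.0378, adjusted p = 0.157 and 0.320), 0.70 without the farthest arrays and 0.42 with the number sets taken out. *Rgs16*, which is also a gene of the thalamus, had r = 0.65 and rho = 0.63 with the thalamus markers (permutation p = 0.0120 and 0.00849, adjusted p = 0.172 and 0.229). This r was 0.49 without the farthest arrays and 0.87 with the number sets taken out (permutation adjusted p = 0.515). *Rgs16* was also high on arrays with a high median, at r = 0.63 and rho = 0.54 (permutation p = 0.0128 and 0.0317, adjusted p = 0.172 and 0.320), 0.35 and 0.47 in the same alternatives.

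**Figure D5:**
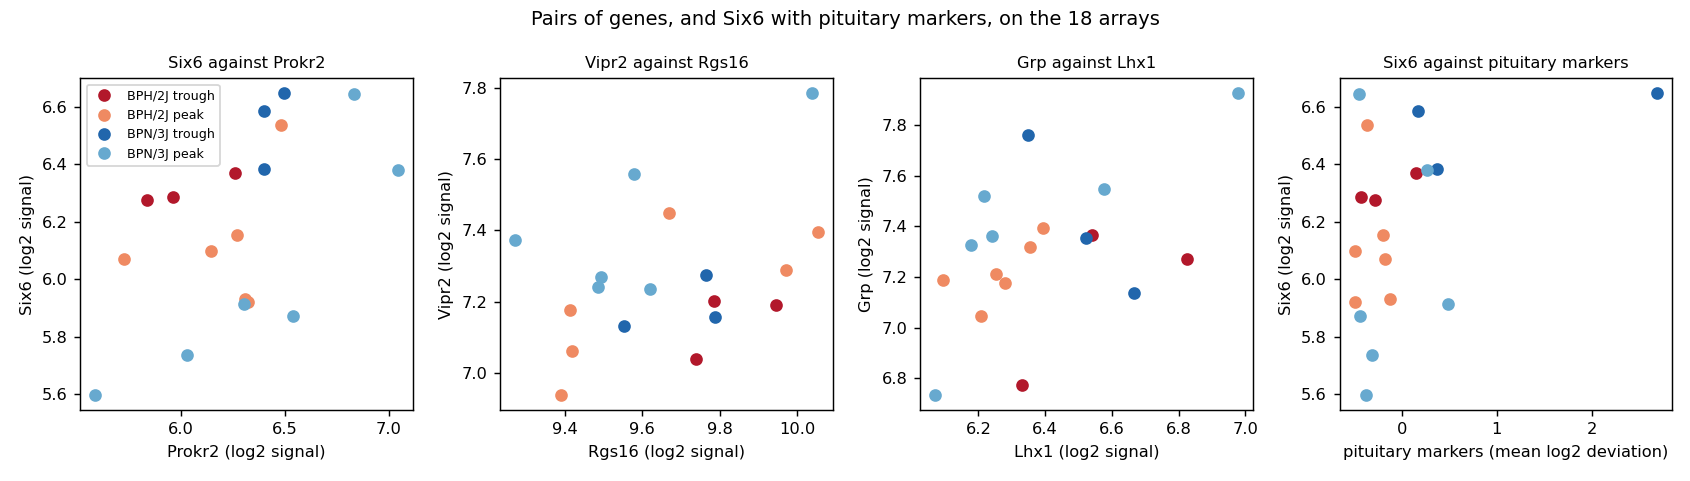
Log2 signal on 18 arrays of *Six6* against *Prokr2*, *Vipr2* against *Rgs16* and *Grp* against *Lhx1*, and *Six6* against the mean log2 deviation of the pituitary markers, coloured by group. BPN/3J mouse 10 lies alone at the upper right of the third panel, with *Grp* at 7.93 and *Lhx1* at 6.98, and BPN/3J mouse 3 lies alone at the right of the last, with a marker mean of 2.69.

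Other genes known for expression in the suprachiasmatic nucleus were counted from a list. Of its 13 genes, 1 was called between the times in BPH/2J and 1 in BPN/3J, both lower at ‘peak’ BP, and 0 in *d* or between the strains. Of all probesets, 8.64% were called in BPH/2J and 25.3% in BPN/3J. *Zfhx3*, a transcription factor that sets the pace of the clock, fell by 0.58 in BPH/2J (limma adjusted p = 0.00623), and *Six3*, a homeobox gene related to *Six6*, fell by 0.41 in BPN/3J (limma adjusted p = 0.0262). Over the 18 arrays these 13 genes were correlated with the nucleus index, both taken as deviations from group means. The correlation ran from -0.08 for *Cck* to 0.53 for *Avp*, the vasopressin gene, which magnocellular neurons also express. Among 15449 probesets with 1 symbol over the limit for dim signal, the 8 with the highest such correlation were *Grem1* (0.84), *Nelfcd*, *Aen*, *Cd99l2*, *Nynrin*, *Psmg4*, *Vstm2b* and *Mcfd2* (0.79), none of them among the 13. Picked as the highest of so many, these values were given no test.

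Of 12 ligands and receptors of the same peptide families, 4 were called between ‘peak’ and ‘trough’ BP in BPN/3J and 0 in each of the other comparisons. *Adcyap1*, which encodes the peptide PACAP that signals light from the retina and shares receptors with *Vip*, rose by 0.68 (limma adjusted p = 0.0160). *Vipr1*, the other receptor of vasoactive intestinal peptide, fell by 0.32 (limma adjusted p = 0.0390), *Nmur1*, a neuromedin receptor, fell by 0.38 (limma adjusted p = 0.0492) and *Prok1*, the sister peptide of *Prok2*, fell by 0.61 (limma adjusted p = 0.0121). Their 25.3% background in this comparison stands beside a share of 4 in 12, and the median of the 12 was -0.15.

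Of 16 clock genes measured, which nearly all cells use, 2 were called between the times in BPN/3J, against 25.3% of all probesets, and 1 between the strains at ‘peak’ BP, against 1.33%. *Nr1d2*, a repressor of the clock loop, rose by 0.26 and *Bhlhe41* by 0.36 at ‘peak’ BP in BPN/3J (limma adjusted p = 0.0172 and 0.0466). *Dbp*, a clock output gene that binds the D-box, was higher in BPH/2J than in BPN/3J at ‘peak’ BP by 0.42 (limma adjusted p = 0.0149). In *d*, in BPH/2J and between the strains at ‘trough’ BP, 0 of the 16 were called.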

How the data were processed

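Hypothalamic RNA of 18 mice was measured on Affymetrix arrays, unpooled, with separate animals as replicates. The authors normalized by RMA, per the labels, and deposited log2 values. Which versions of RMA and limma they ran is not given in the sources used here. The 34760 probesets were taken as deposited, with 0 missing values. Of these, 21640 carry 1 symbol in the platform annotation, and all 9 members were found. A gene of another list was read by its brightest probeset.

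A model with 1 mean per group was fitted across all probesets with lmFit and eBayes (R 4.3.3, limma 3.58.1, 14 residual and 2.94 prior degrees of freedom), and p-values were adjusted by the method of Benjamini and Hochberg over all probesets. Correlations used deviations from group means and 1e+05 shuffles within groups, two-sided, in Python 3.11.15 with numpy 2.4.6, and figures were drawn with matplotlib 3.10.9. Adjustment was over the 36 pairs or the 135 relations with lists. Both procedures were tested on simulated data. All 9 members were named. Of each list, the genes called were named, or else up to 4 with the smallest p. For likeness to the index, the 8 highest were named among probesets with 1 symbol over the 40th percentile of signal. The members and lists were chosen with earlier results of these data known.

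The lists held partners of the peptide families, other genes of the nucleus, clock genes and markers of the paraventricular and supraoptic, arcuate and ventromedial nuclei, lateral hypothalamus, mammillary region, preoptic area, thalamus, cortex, striatum, pituitary, choroid plexus and oligodendrocytes, without the members themselves. Alternatives were quantile normalization, median centring, leaving out dim probesets, a trend and robust prior, array weights, fits of the compared groups only, a replicate block, the lower- or higher-numbered ‘peak’ mice only or a term for the latter, and leaving out each array in turn. Correlations with the number sets taken out, those with marker lists and fits without the 2 arrays least like their group were added after seeing the data. The number of arrays limits the precision.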

Additional observations from a re-analysis of the deposited data

Results flagged for a closer look

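In BPN/3J mice at ‘peak’ BP, *Nms* was at 5.27 in mouse 7, far below the next lowest mouse at 5.69. The gap took up 0.644 of the range of the 6 mice, over Dixon's 95% critical value of 0.625. It was the only such value among 20 groups of values tested, and chance alone gives about 1 in 20.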

How the results depend on the processing

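With the settings used in the report, 0 members were called in each comparison and 0 reached an *aFD* of 1.5 in size. An *aFD* of that size was reached by 1 member with array weights (*Vip*, -1.60), by 2 with the replicate block (*Vip* -1.74, *Nms* 1.51) and by 3 with the higher-numbered ‘peak’ mice only (*Nms* 1.61, *Six6* 1.59, *Prokr2* 1.52). Leaving out each array in turn gave 0 to 1, the latter without BPH/2J mouse 2 at ‘trough’ BP (*Nms* 1.53). Members called between the times in BPH/2J numbered 1 with the lower-numbered mice only (*Rgs16*). In BPN/3J they numbered 1 without dim probesets and 1 with the higher-numbered mice only (*Six6* both times), 3 with array weights (*Vip* 0.71, *Six6* -0.49, *Lhx1* -0.33) and 0 to 2 when each array was left out, *Six6* in 3 cases and *Prok2* in 1. Between the strains at ‘trough’ BP, 1 was called with array weights (*Prokr2*). The share of all probesets was not computed under the alternatives. These counts of calls and of *aFD* values thus have no background beside them and are not read as results about the members. Array weights gave BPN/3J mouse 3 at ‘trough’ BP a weight of 9.44, against 0.409 and 0.636 for the others of its group. That array also had the highest mean of the pituitary markers (2.69) and the lowest *Vip* of its group (5.05). The cause of these added calls was not tested. No member was called in *d* or between the strains at ‘peak’ BP under any alternative. The differences of *Nms* and *Six6* with an unadjusted p under 0.05 kept their direction under all alternatives run. Correlations near 0 did not: with each array left out, that of *Vip* and *Vipr2* ran from -0.32 to 0.29 and that of *Prok2* and *Prokr2* from -0.24 to 0.26.

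The span of the nucleus index was 0.51, and 1.41 in units of SD (where BPH/2J mouse 7 at ‘peak’ BP was the lowest array), 0.381 with members over the 40th percentile of signal only, 0.357 without *Vip*, 0.628 after quantile normalization and 0.663 after median centring. No pair of members passed after adjustment under any alternative. Mice that share a number and a time had residual correlations of -0.30 to 0.19, and 1 of 6 pairs was best correlated with its own number. A pairing of the mice by number was thus not seen, though so few pairs cannot exclude one. With the replicate block 0 members were called in *d* and in the strain comparisons. It cannot be fitted within a strain, where no number is shared, and the fit of the compared groups alone is the same as the reported one for *d*. Each member has 1 probeset, so averaging probesets was not applicable. The 3 mice in each ‘trough’ group limit every comparison but that of the strains at ‘peak’ BP. *Vip* and *Prok2* are dim.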

Other observations

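Among markers of neighbouring regions, which the report uses only beside the 9 genes, calls by limma were few. *Hcrt* (1.29) and *Pmch* (0.86), the wakefulness and feeding peptides of the lateral hypothalamus, rose at ‘peak’ BP in BPH/2J (limma adjusted p = 0.0409 and 0.0104), 2 of 3 markers measured, where 8.64% of all probesets were called. In BPN/3J, *Kiss1* of the arcuate nucleus fell by 0.59, *Nr5a1* of the ventromedial nucleus by 0.54 and *Hmx2* of the preoptic area by 0.50 (limma adjusted p = 0.0230, 0.00198 and 0.0141), each with 1 lower of 6, 4 and 5 measured, where 25.3% of all probesets were called. *Adcyap1* stands in the ventromedial list as well. Between the strains at ‘peak’ BP, *Gal* of the preoptic list was higher in BPH/2J by 0.88 (limma adjusted p = 0.0322), 1 of 5 measured, where 1.33% of all probesets were called. Of the lists for the paraventricular and supraoptic nuclei (6 measured), mammillary region (2), thalamus (5), cortex (3), striatum (4), choroid plexus (5) and oligodendrocytes (5), 0 genes were called by limma in any comparison. Some of their members had an unadjusted p under 0.05 in limma, such as *Avp* between the strains at ‘peak’ BP (1.17, limma adjusted p = 0.246).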
